A study of Mus musculus
Mus spretus with 18 samples.

Results

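Mid-length exons whose length is a multiple of 3 were described across 7 tissues of F1 hybrid mice. These are skipped exon (SE) events on autosomes with an alternative exon longer than 60 bp and shorter than 300 bp, a length divisible by 3, and at least 20 junction reads in both replicates of 2 or more tissues. 16220 events met these conditions, out of 47963 autosomal SE events of any length that met the same read minimum. They cover 13907 exons in 7371 genes, since 1 exon can form several events with different neighbouring exons. 4236 events share their exon with another of the 16220, so events are not independent of each other. Of 33182 autosomal events with such a length, 1764 did not reach the read minimum in any tissue and 15198 reached it in 1 tissue only. At the edges of the length range, 345 events with an exon of 63 bp and 20 with one of 297 bp were inside, and 274 of 60 bp and 13 of 300 bp fell just outside.

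Messenger RNA is read in codons of 3 bases. Skipping an exon whose length is a multiple of 3 removes whole codons and keeps the downstream reading frame, while skipping an exon of another length shifts the frame, which often brings in an early stop codon and can lead to decay of the message. This holds for coding exons. Whether an exon is coding or untranslated was not annotated here, so in the results below frame-preserving stands only for a length divisible by 3. Frame-preserving cassette exons are therefore a well-known way for 1 gene to make related proteins, in particular in nerve and muscle, where regulators of the Rbfox, Mbnl, Celf, Nova and Ptbp families act.

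The mice were female F1 hybrids of a C57BL/6J mother and a SPRET/EiJ father, so that each nucleus holds both parental genomes. RNA-seq libraries came from cerebral cortex, heart, kidney, lung, spleen and liver at 8 weeks of age, and from embryonic stem cells (ESC) of the same cross, with 2 replicates per tissue. The ESC replicates were separate clones, and the liver libraries, which had been made in an earlier study of the same animals, carry the strain names C57BL/7J and C57BL/8J in their labels. Cultured F1 fibroblasts were treated for 4 h with pladienolide B at 0.1 µM, an inhibitor of the branch-point recognition complex of the spliceosome, or with the same amount of DMSO, 2 replicates each.

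Inclusion was measured as percent spliced in (PSI), the share of transcripts that contain the exon, on a scale from 0 to 1, from junction reads divided by the effective length of each form. The switch score of an event is its tissue range, the highest minus the lowest mean PSI over the tissues with enough reads, and events with a range of 0.5 or more are called Switch-Like. Summed over all SE events, the junction counts of a tissue library came to between 46558287 and 129496306. A read can count for several events in this sum. The events described here had a median of 804 reads per library. All 28 tissue markers checked, 4 per tissue, were higher in both libraries of their tissue than in any other library. An event was counted as alternative unless its PSI was above 0.9 in all libraries with enough reads or below 0.1 in all of them. This left 3895 alternative events (24.0%), compared with 21.2% for the other mid lengths and 24.3% of all 47963 events. ESC replicates differed more than those of organs. Among the alternative events, the median difference between replicates was 0.0613 PSI in ESC and between 0.0243 and 0.0353 in the organs. In bulk tissue, a change of isoform within a cell and a change in the mix of cell types cannot be told apart, nor can fewer cells of a type and less RNA per cell.

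Most of the 16220 events had their exon included almost everywhere. The mean PSI was above 0.9 in 13497 events (83.2%), below 0.1 in 634 (3.91%) and between these limits in 2089 (12.9%). For the 24186 events of the same length range whose length is not divisible by 3, the corresponding shares were 87.0%, 4.06% and 8.90%. Over all 47963 events they were 83.6%, 4.36% and 12.1%, near those of the frame-preserving events. Beside the other mid lengths, the frame-preserving exons held the larger share of intermediate inclusion, while the shares of mostly skipped exons lay close together. This held in each library: between 12.3% and 18.7% of the frame-preserving events and between 9.29% and 13.3% of the others had a PSI between 0.1 and 0.9, and the former share was higher in 14 of 14 libraries. Because all libraries read the same exons, this count was not tested. By mean PSI, multiples of 3 made up 332 of the 582 mid-length events with a PSI of 0.3 to 0.5, the highest share of 7 bins, and 39.3% of those below 0.1 and 40.1% of those from 0.99.

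The tissue range of PSI was small for most events of both classes, with medians of 0.0135 and 0.0134. The classes separated in the upper tail. The 99th percentile of the range was 0.797 for multiples of 3 and 0.501 for other lengths. 547 frame-preserving events (3.37%) were Switch-Like, compared with 244 of the others (1.01%). Of all 47963 events of any length, 1350 (2.81%) were Switch-Like, with a 99th percentile of the range of 0.770. The frame-preserving events thus lay nearer to all events than to the other mid lengths. With replicate 1 or replicate 2 alone, the share was 3.64% or 3.78% for multiples of 3 and 1.27% or 1.22% for the others. The distance between the classes was larger than this spread. Both replicates read the same events, so the spread gives no measure of uncertainty for a difference between sets of exons. Lengths that leave a remainder of 1 base and those that leave 2 bases had nearly the same share, 1.01% and 1.00%.

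Read the other way, the share of frame-preserving lengths among mid-length events rose with the tissue range. It was 39.1% of 34909 events with a range below 0.1, 39.9% of 2624 with a range of 0.1 to 0.2, and 42.2% of 1115 with a range of 0.2 to 0.3. It then reached 53.3% of 967 events with a range of 0.3 to 0.5 and 69.2% of 791 Switch-Like events. Counting each exon once, 491 of 724 Switch-Like exons (67.8%) had a length divisible by 3. Below a range of 0.3, the shares stayed within a few points of the 40.1% found for all mid-length events.

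**Figure D1:**
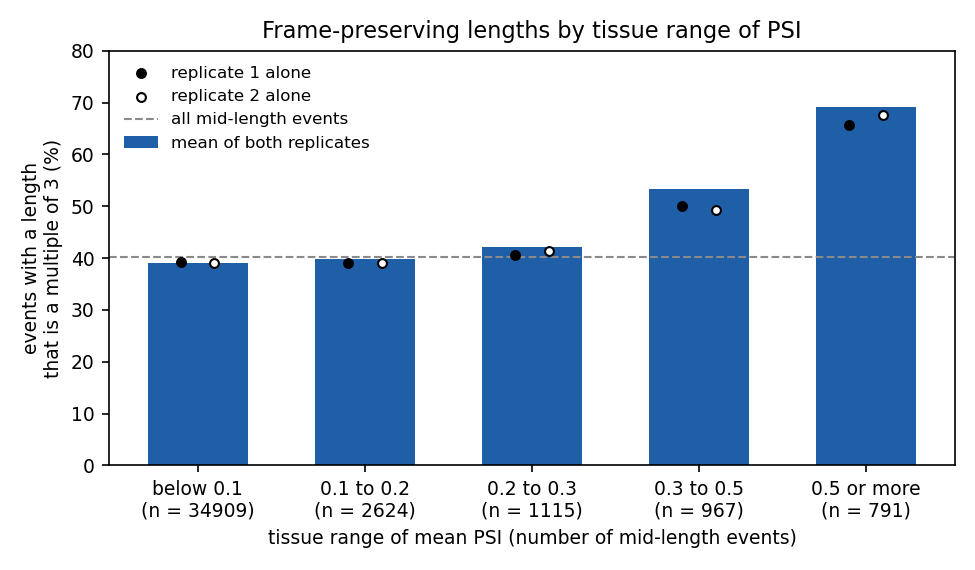
Share of mid-length SE events whose exon length is a multiple of 3 (y axis, percent), by tissue range of mean PSI (x axis, 5 classes with their number of events). Bars use the mean of both replicates, points each replicate alone, and the dashed line marks all mid-length events at 40.1%. The share stays near the line up to a range of 0.3 and is 69.2% from a range of 0.5.

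The Switch-Like shares were also set side by side within bins of exon length. Among exons of 61 to 90 bp, 5.03% of frame-preserving events and 1.21% of the others were Switch-Like. At 91 to 120 bp the shares were 3.48% and 0.957%, above 120 and up to 150 bp 2.53% and 0.720%, and among the longest exons, over 240 bp, 3.55% and 1.53%. In all 7 length bins the share was higher for multiples of 3. The same order was found in each of 4 equal groups by read depth, with 5.03% against 2.04% in the lowest and 1.19% against 0.349% in the highest, and for each number of tissues with reads, with 10.3% against 3.10% among events read in all 7 tissues.

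**Figure D2:**
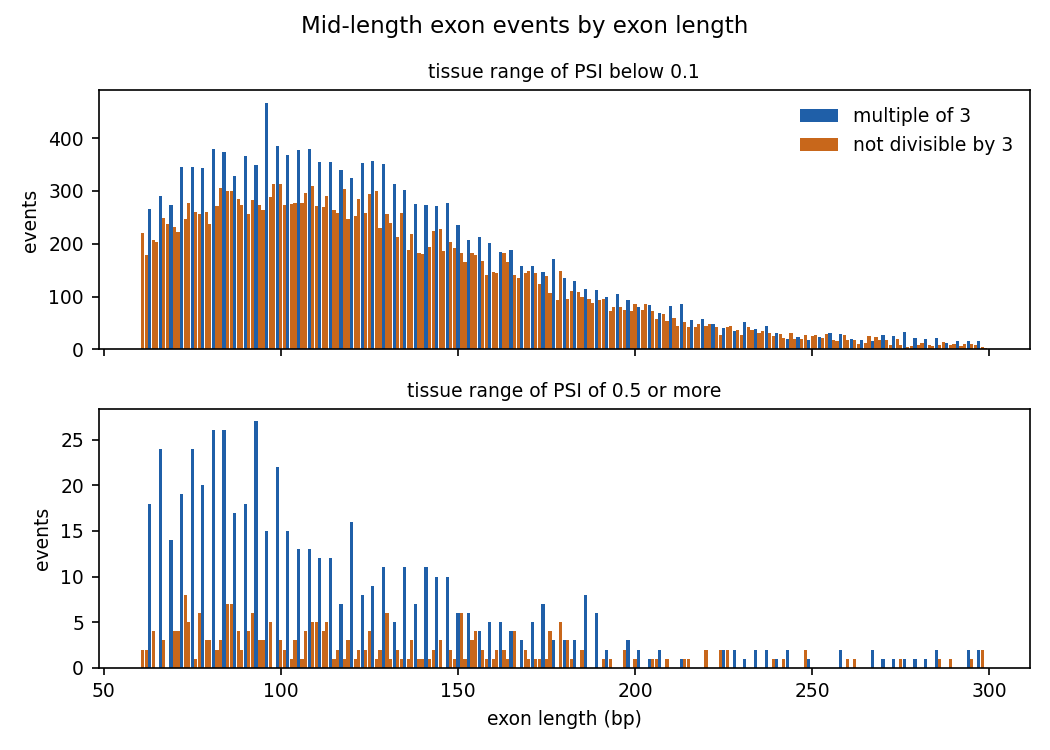
Number of mid-length SE events (y axis) at each exon length in bp (x axis), for events with a tissue range of PSI below 0.1 (upper panel) and of 0.5 or more (lower panel). Blue bars are lengths divisible by 3 and orange bars other lengths, and among the 791 events of the lower panel 547 are blue.

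The neighbouring introns of frame-preserving exons had medians of 2022.5 bp upstream and 1801.5 bp downstream, and those of other lengths 2009.5 and 1834 bp. Switch-Like frame-preserving exons had a median length of 102 bp, with introns of 2241 bp upstream and 2233 bp downstream, and those with a range below 0.1 had a median length of 120 bp and introns of 1971 and 1715 bp. By symbol, 99.6% of the events were matched to RefSeq (GRCm38.p6), and 99.2% of the matched events lie in protein-coding genes. The median expression of the host gene in the tissues with reads was 35.1 TPM for multiples of 3 and 31.9 TPM for other lengths.

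A logistic model over tissues, with dispersions shared across events, called 1478 of the 16220 frame-preserving events (9.11%) at an FDR of 0.05 and a tissue range of at least 0.1. Of all 47963 events, 8.26% were called. Of the 24186 events with other mid lengths, 1264 (5.23%) were called. The 1478 events are 1313 exons in 1021 genes, and 541 of the 547 Switch-Like events were among them. Cortex was the most frequent extreme: among called events with reads in cortex it held the highest PSI in 472 of 1381 (34.2%) and the lowest in 443 (32.1%). For other lengths, cortex was the highest in 24.3% and the lowest in 33.5% of 1149 called events.

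Pairs of tissues were then compared directly. A difference of 0.5 or more in mean PSI was found in 3.07% to 4.63% of frame-preserving events between cortex and each other tissue, and in 1.55% to 2.63% between heart and the tissues other than cortex. Among kidney, lung, spleen, liver and ESC it was found in 0.149% to 0.853%. In all 21 pairs the share was higher than among the other lengths, where the highest share was 1.04%. The same events and libraries enter several pairs, so the pairs are not independent.

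**Figure D3:**
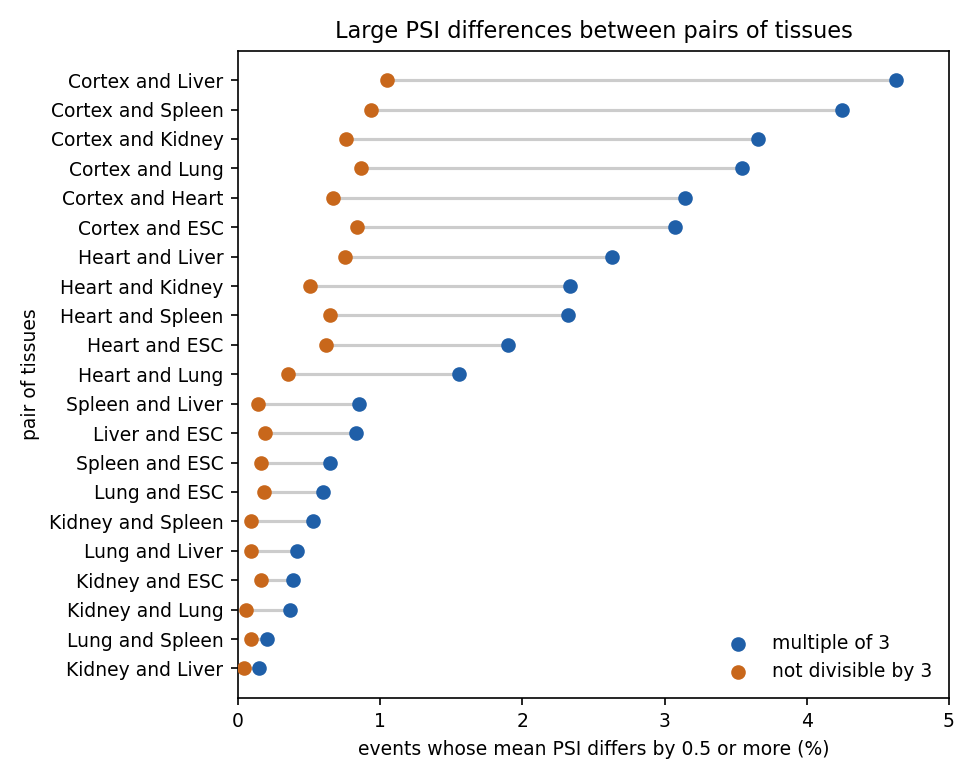
Percent of mid-length events whose mean PSI differs by 0.5 or more (x axis) between each pair of tissues (y axis), for lengths that are a multiple of 3 (blue) and not divisible by 3 (orange). In all 21 pairs the blue point lies to the right, and pairs with cortex or heart reach the highest values.

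By a limit chosen after the values were seen, events were also counted in which both replicates of 1 tissue stood at least 0.1 PSI above or below every replicate of all other tissues, among called events read in 4 or more tissues. Cortex stood alone at the top in 177 and alone at the bottom in 157 frame-preserving events, together 5.29% of 6315, compared with 1.95% for other lengths. Heart stood alone in 51 and 63 events (1.91% of 5968, compared with 0.679%). The shares were 0.636% and 0.301% in spleen, 0.693% and 0.372% in ESC, 0.198% and 0.0669% in kidney (6 high and 8 low events) and 0.166% and 0.0398% in lung (5 high and 6 low events). In liver, 12 high and 9 low events gave 0.425%, below the 0.485% of other lengths, the only tissue of the 7 with this order.

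The exons with the widest separation between tissues switched from near-complete skipping to near-complete inclusion. They are given with the PSI of replicates 1 and 2 in each tissue that had enough reads, with mm10 coordinates. All adjusted p-values of this comparison come from the moderated F test over tissues. The exons were picked for the gap between their highest and lowest tissue, so these 2 tissues lie apart by choice.

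In heart and cortex the exons of several genes took opposite states. The 90 bp exon of Tacc2, a microtubule- and centrosome-associated coiled-coil protein (chr7:130744527-130744616, plus strand), had a PSI of 0.987 and 0.990 in heart, 0.890 and 0.747 in lung, and 0.0021 and 0.0039 in cortex (adjusted p = 9.5e-09). The 162 bp exon of Pitpnm2, a phosphatidylinositol transfer protein (chr5:124124798-124124959, minus strand), was at 1 and 0.982 in heart, 0.861 and 0.752 in kidney, 0.888 and 0.869 in lung, 0.455 and 0.616 in spleen, 0.521 and 0.575 in liver, 0.772 and 0.387 in ESC, and 0.0201 and 0.0312 in cortex (adjusted p = 3.3e-09). The Pitpnm2 exon was intermediate outside heart and cortex, with a wide gap between the ESC clones.

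Heart alone included 1 exon and alone skipped another. The 93 bp exon of Nebl, which encodes the Z-disc protein nebulette (chr2:17370459-17370551, minus strand), had a PSI of 0.985 and 0.968 in heart and between 0 and 0.0387 in the libraries of cortex, kidney and lung (adjusted p = 6.4e-08). The 171 bp exon of Idh3b, a subunit of the NAD-dependent isocitrate dehydrogenase of the citric acid cycle (chr2:130279556-130279726, minus strand), was at 0.0437 and 0.0476 in heart and between 0.931 and 0.995 in the 12 other libraries (adjusted p = 6.5e-14). It rests on 1823 to 9377 reads per library. The 81 bp exon of Fxr1, an RNA-binding protein of the fragile X family (chr3:34064974-34065054, plus strand), was at 0.966 and 0.961 in heart, 0.278 and 0.323 in cortex, 0.124 and 0.131 in lung, and at most 0.0692 in the libraries of kidney, spleen, liver and ESC (adjusted p = 8.1e-11). Heart and the other tissues did not overlap in these 3 exons. For Nebl and Idh3b this follows from the choice of exons in which 1 tissue stands alone. Fxr1 was picked for its gap between heart and kidney.

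Cortex included a group of exons that other tissues skipped. The 63 bp exon of Madd, an exchange factor for Rab3 (chr2:91155013-91155075, minus strand), was at 0.977 and 0.967 in cortex, 0.319 and 0.280 in heart, and at most 0.0217 in the libraries of the 5 other tissues (adjusted p = 1.2e-11). The 156 bp exon of Ablim3, an actin-binding LIM protein, was at 0.985 and 0.990 in cortex and between 0.0053 and 0.0435 in heart, kidney, lung and liver (adjusted p = 2.7e-08). The 129 bp exon of Lphn2, an adhesion receptor of the latrophilin family (chr3:148821280-148821408, minus strand), was at 0.969 and 0.981 in cortex and at most 0.133 in 5 other tissues (adjusted p = 1.9e-09). In each of these exons, both cortex libraries lay above all others, in part by the choice of the exons.

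A pair of genes for pleckstrin homology domain proteins showed the same order. The 81 bp exon of Plekha6 (chr1:133279373-133279453, plus strand) was at 0.986 and 0.980 in cortex, 0.161 and 0.186 in heart, 0.0094 and 0.0063 in kidney, and 0 and 0.098 in spleen (adjusted p = 7.8e-08). The 189 bp exon of Plekha5 (chr6:140580347-140580535, plus strand) was at 0.955 and 0.968 in cortex, 0.174 and 0.178 in heart, 0.137 and 0.142 in lung, 0.131 and 0.0419 in ESC, and at most 0.047 in kidney, spleen and liver (adjusted p = 4.6e-09). Heart held the second highest level in both.

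Other exons were skipped in cortex and included elsewhere. The 63 bp exon of Dmxl2, a rabconnectin involved in vesicle acidification (chr9:54379775-54379837, minus strand), was at 0.0498 and 0.0443 in cortex, 0.788 and 0.740 in heart, and at least 0.934 in kidney, lung, liver and ESC (adjusted p = 8.5e-11). The 117 bp exon of Clip1, a protein of growing microtubule ends (chr5:123627294-123627410, minus strand), was at 0.110 and 0.111 in cortex and between 0.978 and 1 in the 12 other libraries (adjusted p = 5e-11). The Clip1 exon thus separated cortex from 6 tissues that hardly differed among themselves.

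The 135 bp exon of Khk, ketohexokinase, the enzyme that starts the breakdown of fructose (chr5:30927022-30927156, plus strand), split the organs in another way. Its PSI was 0.996 and 0.993 in liver, 0.989 and 0.989 in kidney, 0.0104 and 0.0247 in lung, and 0.0098 and 0.0023 in spleen (adjusted p = 5.4e-09). Liver and kidney, the organs known for fructose breakdown, formed 1 group, and lung and spleen the other.

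**Figure D4:**
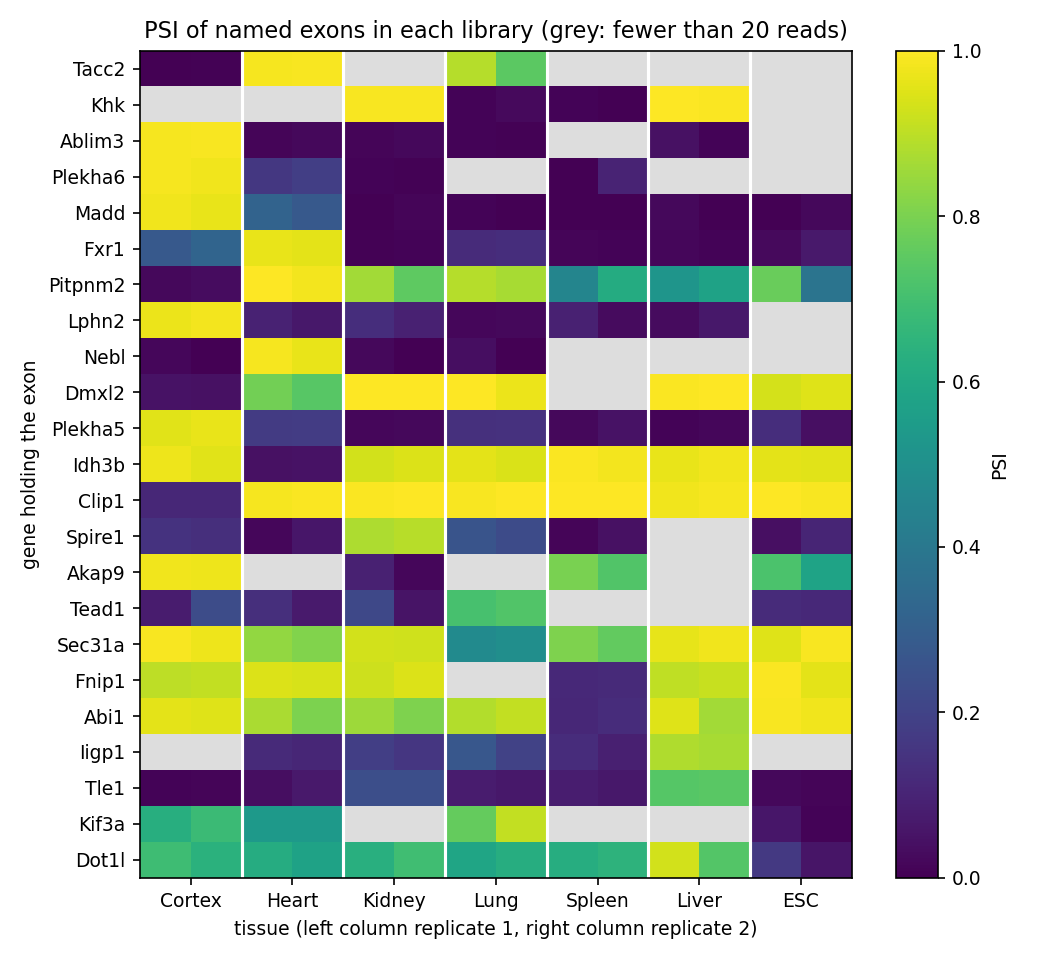
PSI (colour, from 0 to 1) of the named exons (rows, by gene) in each of the 14 tissue libraries (columns, replicates 1 and 2 side by side), with tissues under 20 reads in grey. The upper 12 rows are the widest gaps between tissues, such as Idh3b at 0.0437 and 0.0476 in heart, and the lower rows are exons in which 1 tissue stands alone, such as Clip1 in cortex.

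Exons that set apart the other tissues were less extreme. They were picked because 1 tissue stood apart from all others. In kidney, the 174 bp exon of Spire1, an actin nucleator, was at 0.878 and 0.892, compared with 0.261 and 0.227 in lung, 0.146 and 0.134 in cortex and at most 0.104 in heart, spleen and ESC (adjusted p = 8.8e-09). The 141 bp exon of Akap9, a scaffold of centrosome and Golgi (chr5:4004803-4004943, plus strand), was lowest in kidney, at 0.093 and 0.0169, compared with 0.978 and 0.975 in cortex, 0.800 and 0.729 in spleen and 0.717 and 0.579 in ESC (adjusted p = 3.9e-05). It had as few as 30 reads in a library. With a minimum of 50 reads kidney itself dropped out, and the range over the remaining tissues was 0.329 (adjusted p = 0.00118). By this choice, the kidney libraries did not overlap with any other in both exons.

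In lung, the 63 bp exon of Tead1, a transcription factor of the Hippo pathway (chr7:112841888-112841950, plus strand), was at 0.709 and 0.727 and at most 0.232 in cortex, heart, kidney and ESC (adjusted p = 0.0056). It was read by as few as 39 reads per library. With a minimum of 50 reads lung itself dropped out, and the remaining tissues had a range of 0.0149 (adjusted p = 0.838). That fit does not address the level in lung. The 291 bp exon of Sec31a, a subunit of the COPII vesicle coat (chr5:100373425-100373715, minus strand), was at 0.480 and 0.494 in lung, 0.805 and 0.759 in spleen, 0.840 and 0.811 in heart, and at least 0.927 in cortex, kidney, liver and ESC (adjusted p = 5.9e-08). Lung was the lowest of the 7 tissues for Sec31a.

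Spleen alone skipped exons of Fnip1 and Abi1. The 84 bp exon of Fnip1, a partner of folliculin in nutrient signalling (chr11:54487712-54487795, plus strand), was at 0.117 and 0.121 in spleen and at least 0.901 in cortex, heart, kidney, liver and ESC (adjusted p = 2e-06). The 87 bp exon of Abi1, a subunit of the actin-regulating WAVE complex (chr2:22950184-22950270, minus strand), was at 0.113 and 0.126 in spleen and between 0.804 and 0.992 in the 12 other libraries (adjusted p = 1.3e-09). The gap between spleen and the nearest other library was wide in both, and both exons were picked for it.

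Liver alone included exons of Iigp1 and Tle1. The 183 bp exon of Iigp1, an interferon-induced GTPase, was at 0.882 and 0.869 in liver and at most 0.271 in heart, kidney, lung and spleen (adjusted p = 3.1e-08). The 102 bp exon of Tle1, a transcriptional corepressor (chr4:72138962-72139063, minus strand), was at 0.735 and 0.745 in liver, 0.239 and 0.239 in kidney, and at most 0.0781 in the libraries of the 5 other tissues (adjusted p = 4.2e-09). Kidney was the second highest for Tle1.

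In ESC, the largest gaps were at the bottom. The 72 bp exon of Kif3a, a motor of kinesin-2 (chr11:53588689-53588760, plus strand), was at 0.0595 and 0.0098 in ESC, 0.625 and 0.682 in cortex, 0.536 and 0.542 in heart, and 0.765 and 0.907 in lung (adjusted p = 4.9e-05), with as few as 20 reads in a library. The 96 bp exon of Dot1l, a histone methyltransferase (chr10:80791744-80791839, plus strand), was at 0.167 and 0.0565 in ESC and between 0.578 and 0.931 in the 12 other libraries (adjusted p = 0.00017). Dot1l was covered by 26 to 131 reads. With a minimum of 50 reads ESC itself dropped out, and the remaining tissues had a range of 0.0663 (adjusted p = 0.975). That fit does not address the level in ESC.

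Some genes held several frame-preserving exons that differed between tissues. Ank2 and Lrrfip1 had 6 called exons each, out of 9 and 7 exons in the class. Ablim1 had 5 of 6 and Mapt, the tau gene, 5 of 5, of which 1 was Switch-Like. Further down the same ranking, Ktn1 had 4 of 8 and Mycbp2 4 of 10. These genes were picked for their number of called exons, so their shares are high by selection. Of all frame-preserving events 9.11% were called, and of all events of any length 8.26%.

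Lists of genes for 5 functions were compared with the background of 8.26% called events and a median tissue range of 0.0145 over all events. Of the list for the membrane skeleton and microtubule binding, 15 of 21 genes had a frame-preserving event, 31 of 67 events (46.3%) were called, in 13 genes, and the median range was 0.0977. Of the sarcomere and Z-disc list, 32 of 50 events (64.0%) in 6 of 10 genes were called, with a median range of 0.331. For adhesion, junction and polarity, 10 of 49 events (20.4%) were called with a median of 0.0142, for receptors and channels 7 of 32 (21.9%) with a median of 0.0154, and for splicing regulators 6 of 30 (20%) with a median of 0.00643. The lists were chosen with results on these libraries known, and several events of a gene share exons, so the shares are a description.

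Among membrane skeleton and microtubule genes, the brain microtubule protein Map2 had a 93 bp exon (chr1:66431527-66431619, plus strand) at 0.0848 and 0.0808 in cortex and at least 0.913 in kidney, spleen and ESC (adjusted p = 1.4e-07). The 93 bp exon of Ank2, the adaptor ankyrin-B (chr3:126930561-126930653, minus strand), was at 0.923 and 0.907 in heart, 0.125 and 0.191 in lung, and at most 0.0564 in cortex, kidney, spleen and ESC (adjusted p = 2.2e-11). The 72 bp exon of Dst, the cytoskeletal linker dystonin (chr1:34301861-34301932, plus strand), was at 0.825 and 0.820 in cortex and 0.858 and 0.853 in heart, and at most 0.147 in the 5 other tissues (adjusted p = 3.3e-12). Cortex and heart thus lay together for Dst and far apart for Ank2. The 249 bp exon of the kinesin Kif1b (chr4:149220542-149220790, minus strand) was at 0.936 and 0.945 in cortex and at most 0.358 in heart, kidney, spleen and ESC (adjusted p = 7e-08).

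In the sarcomere and Z-disc list, besides Nebl, the adaptor gene Sorbs2 had a 93 bp exon (chr8:45741487-45741579, plus strand) at 0.0368 and 0.0305 in heart, 0.913 and 0.896 in liver, 0.710 and 0.770 in cortex, 0.753 and 0.645 in kidney, 0.279 and 0.385 in lung, and 0.116 and 0.141 in spleen (adjusted p = 3.9e-10). Both heart libraries lay below all others for this exon, and liver held the highest level. The 147 bp exon of Ablim1, an actin-binding LIM protein (chr19:57046925-57047071, minus strand), was at 0.157 and 0.147 in cortex, 0.545 and 0.486 in heart, 0.730 and 0.820 in lung, and at least 0.898 in kidney, spleen, liver and ESC (adjusted p = 6.2e-09).

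The called exons named from the adhesion and polarity list took intermediate levels in several tissues. The 147 bp exon of Numb, an endocytic adaptor that inhibits Notch (chr12:83797197-83797343, minus strand), was at 0.748 and 0.761 in kidney, 0.484 and 0.467 in liver, 0.384 and 0.490 in ESC, and at most 0.118 in spleen, lung, cortex and heart (adjusted p = 2.2e-09). The 240 bp exon of Tjp1, the tight junction protein ZO-1 (chr7:65314093-65314332, minus strand), was at 0.721 and 0.786 in liver, 0.489 and 0.515 in kidney and at most 0.258 elsewhere (adjusted p = 7.9e-05). Liver and kidney held the 2 highest levels of Tjp1. The 180 bp exon of Ctnnd1, p120-catenin (chr2:84624270-84624449, minus strand), was at 0.936 and 0.941 in cortex and 0.226 and 0.270 in liver (adjusted p = 3.5e-06). The 270 bp exon of Fn1, fibronectin (chr1:71603660-71603929, minus strand), was at 0.657 and 0.747 in ESC, at 0.0027 and 0.0021 in liver, and between 0.157 and 0.367 in the 5 other tissues (adjusted p = 5.1e-11). Liver had the lowest mean for both exons, though for Ctnnd1 its libraries overlapped with kidney at 0.262 and 0.333.

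Of the receptors and channels, the 267 bp exons of Fgfr1 (chr8:25555508-25555774, plus strand) and Fgfr2 (chr7:130242378-130242644, minus strand), growth factor receptors, were at 0.953 and 0.959 and at 0.696 and 0.706 in cortex. Fgfr1 was also high in ESC, at 0.988 and 0.964, and lowest in lung, at 0.295 and 0.298 (adjusted p = 1e-08). Fgfr2 was at 0.253 to 0.430 in the libraries of kidney, lung, spleen and liver, which overlapped with each other (adjusted p = 0.0013). The liver replicates of Fgfr1 lay far apart, at 0.106 and 0.556. The 141 bp exon of Ptprc, the leukocyte antigen CD45 (chr1:138117754-138117894, minus strand), was at 0.654 and 0.626 in spleen and 0.050 and 0.0645 in kidney (adjusted p = 0.0051). The 75 bp exon of the calcium channel gene Cacna1c (chr6:118715903-118715977, minus strand) was at 0.0675 and 0.0413 in cortex, 0.490 and 0.448 in heart, and 0.540 and 0.649 in kidney (adjusted p = 1.5e-05). Both Ptprc and Cacna1c had libraries close to the read minimum, and with a minimum of 50 reads Ptprc could not be tested.

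Of the 30 events of splicing regulators, 0 were Switch-Like. The share over all frame-preserving events was 3.37%, so a count of 0 among 30 lies near the background. The called exons named here had smaller ranges than those above. The 147 bp exon of Hnrnpd (chr5:99963731-99963877, minus strand) was at 0.715 and 0.709 in cortex, 0.690 and 0.672 in ESC and 0.509 and 0.489 in liver (adjusted p = 3.2e-07). The 93 bp exon of Rbfox1 (chr16:7292185-7292277, plus strand) was at 0.998 and 0.998 in cortex and 0.816 and 0.812 in heart (adjusted p = 5.8e-05), and the 144 bp exon of Celf2 (chr2:6549832-6549975, minus strand) at 0.956 and 0.965 in cortex and 0.748 and 0.754 in spleen (adjusted p = 2.5e-05). The 78 bp exon of Ptbp1 (chr10:79860117-79860194, plus strand) was at 0.608 and 0.626 in liver and 0.384 and 0.421 in spleen (adjusted p = 0.015), and missed the threshold with the replicate number as a block (adjusted p = 0.063). These 4 exons had ranges between 0.184 and 0.215.

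In F1 hybrids both alleles meet the same regulators in the same nucleus, so a difference in PSI between them addresses differences in cis. Of the frame-preserving events, 13563 could be tested in 1 or more tissues, with at least 20 reads per allele and replicate and a PSI from both alleles together within 0.1 of that from all reads, and 2657 could not. The median absolute difference in PSI between the C57BL/6J and SPRET/EiJ alleles lay between 0.00939 in kidney and 0.0143 in heart, and for other lengths between 0.00967 and 0.0141. The difference between the classes in these medians was thus small beside the differences between tissues.

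Called differences, at an FDR of 0.05 and at least 0.1 PSI, were found in 153 of 6380 events (2.40%) in cortex, where 1.82% of all events were called. In heart 68 of 5072 were called (1.34%, all events 1.44%), in kidney 126 of 7175 (1.76%, all events 1.43%) and in lung 108 of 6449 (1.67%, all events 1.63%). Spleen had 111 of 6093 (1.82%, all events 1.55%), liver 28 of 4026 (0.695%, all events 0.682%) and ESC 3 of 7465 (0.0402%, all events 0.0258%). These shares lay near the background. Inclusion was higher from C57BL/6J in 90 and from SPRET/EiJ in 63 of the cortex events, and in 66 and 60 of those in kidney. The ESC count says little, because no simulated difference of 0.3 PSI was recovered with the spread between the ESC clones. Since both alleles are read in the same library, the library can be taken as a block, which gave 225 calls for cortex, 35 for heart, 71 for kidney, 73 for lung, 124 for spleen and 0 for both liver and ESC. With the block, 3.53% of frame-preserving and 3.56% of other events were called in cortex, 0.690% and 0.658% in heart, 0.990% and 0.794% in kidney, 1.13% and 1.13% in lung, and 2.04% and 1.90% in spleen.

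Restricted to alternatively spliced events, 7.43% of frame-preserving and 7.74% of other events were called in cortex, 4.30% and 5.30% in heart, 6.10% and 5.71% in kidney, 5.72% and 6.80% in lung, 6.24% and 6.80% in spleen, and 2.58% and 2.02% in liver. The share was therefore lower for multiples of 3 in cortex, heart, lung and spleen, and higher in kidney and liver. At comparable PSI of the C57BL/6J allele, averaged over the tested tissues, the classes were further apart in the middle of the scale. For a PSI of 0.3 to 0.5, the median absolute allelic difference was 0.0727 (quartiles 0.0382 and 0.136) over 223 frame-preserving events and 0.147 (quartiles 0.0636 and 0.326) over 130 others, and 13.9% and 30.8% were called in 1 or more tissues. For a PSI of 0.5 to 0.7 the medians were 0.105 and 0.159, and above 0.9 they were 0.0114 and 0.0121. The quartiles overlap in each of these bins.

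Tissue range and allelic difference were set side by side. Of Switch-Like frame-preserving events, 36 of 454 (7.93%) had a called allelic difference, compared with 27 of 171 (15.8%) of other lengths. For ranges of 0.3 to 0.5 the shares were 10.1% and 16.9%, and for ranges of 0.2 to 0.3 both were 15.8%. Among frame-preserving events the share was highest for a range of 0.2 to 0.3 and lower at wider ranges. Over all ranges, 2.48% of frame-preserving and 2.12% of other events were called. No share over events of every length stands beside these, and a difference between the classes was not tested.

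Allelic differences kept their direction across tissues. Of the 10934 frame-preserving events tested in 2 or more tissues, 309 were called in at least 1 and 126 in at least 2. Of 16028 such events of other lengths, 380 and 160 were. Over events tested in 1 or more tissues, 2.48% of frame-preserving and 2.12% of other events were called, so the classes lay close together. The sign was the same in all called tissues for the 126 frame-preserving events and for 159 of the 160 others. Over all pairs of a called tissue and another tested tissue of the same event, the sign was the same in 2520 of 2574 (97.9%), and in 1877 (72.9%) the difference in the second tissue was also at least 0.1 in the same direction. For other lengths the share with the same sign was also 97.9%. Tissues came from the same animals, so this is a description.

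A pair of exons, called in all 7 tissues, had alleles with almost opposite states. The 132 bp exon of Pkp4, a plakophilin of cell junctions (chr2:59305066-59305197), was included from C57BL/6J at 0.989 and 0.922 in cortex, 0.977 and 0.990 in heart, 0.902 and 0.895 in kidney, 0.987 and 1 in lung, 1 and 0.948 in spleen, 1 and 0.862 in liver, and 0.992 and 0.923 in ESC. From SPRET/EiJ it was at most 0.0029 in every library. The adjusted p of the moderated F test lay between 5.6e-06 in cortex and 0.043 in liver. With the library as a block, liver and ESC missed the threshold, with adjusted p of 0.14 and 0.0712.

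Mrps17, a protein of the small mitochondrial ribosome subunit, had a 258 bp exon (chr5:129715684-129715941) at 0.888 to 1 from C57BL/6J and at 0 to 0.0455 from SPRET/EiJ over all 14 libraries. It was called in all 7 tissues, with a mean difference between 0.884 in lung and 0.968 in kidney, and as for Pkp4 the call was lost under the block in liver (adjusted p = 0.0547) and ESC (adjusted p = 0.0712). In both exons the 2 alleles did not overlap in any tissue.

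In 4 exons the SPRET/EiJ allele was mostly skipped while C57BL/6J was intermediate. The 135 bp exon of the interferon-induced gene Ifi27 (chr12:103437390-103437524) had C57BL/6J means between 0.445 in liver and 0.740 in cortex, and SPRET/EiJ means of at most 0.0167. The 138 bp exon of Ankrd16, an ankyrin repeat protein (chr2:11785123-11785260), had C57BL/6J means between 0.374 in ESC and 0.556 in lung, and SPRET/EiJ means of at most 0.0097. The 117 bp exon of Morf4l1, a chromatin reader (chr9:90103655-90103771), had means of 0.784 and 0.114 in cortex and 0.386 and 0.0206 in kidney, for C57BL/6J and SPRET/EiJ. The 72 bp exon of Ktn1, the kinesin receptor kinectin (chr14:47725929-47726000), had means of 0.706 and 0.248 in heart, 0.622 and 0.232 in cortex, 0.535 and 0.174 in lung, 0.322 and 0.0729 in kidney and 0.246 and 0.0664 in spleen. In Morf4l1 and Ktn1 both alleles moved in the same tissue order from cortex to lung to kidney, and the SPRET/EiJ allele stayed below C57BL/6J in every library.

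The reverse was found for a pair of exons. The 219 bp exon of Tmem234 (chr4:129601407-129601625) had C57BL/6J means between 0.223 in liver and 0.476 in spleen, and SPRET/EiJ means between 0.898 in lung and 0.983 in heart. The 81 bp exon of Mrpl30, a protein of the large mitochondrial ribosome subunit (chr1:37892943-37893023), had means of 0.546 and 0.985 in kidney, 0.526 and 0.942 in lung, and 0.782 and 0.991 in heart, for C57BL/6J and SPRET/EiJ. These 6 exons were called in the 6 organs and not in ESC. With the library as a block, all 6 missed the threshold in liver and Tmem234 also in heart.

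**Figure D5:**
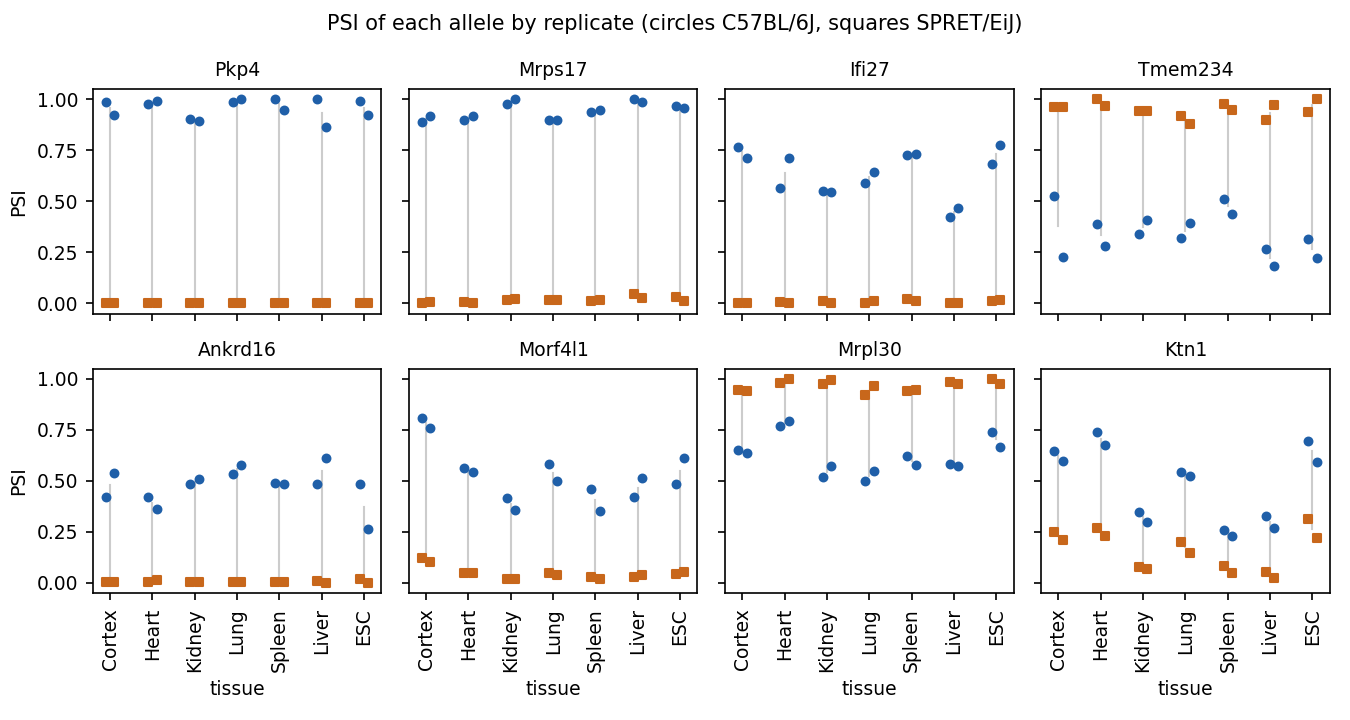
PSI (y axis) of each allele in both replicates of each tissue (x axis) for the 8 frame-preserving exons called in most tissues, with circles for C57BL/6J, squares for SPRET/EiJ and lines between allele means. The alleles do not overlap in any tissue, and SPRET/EiJ is the higher allele only in Tmem234 and Mrpl30.

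Inhibition of the spliceosome addressed whether this class of exons responds differently when splicing is weakened in general. Of 9287 frame-preserving events read in all 4 fibroblast libraries, 724 (7.80%) were called between pladienolide B and DMSO, compared with 8.11% of all 54535 events and 8.18% of 13711 events of other mid lengths. Inclusion was lower after pladienolide B in 706 of the 724 (7.96% of all events were called lower) and higher in 18 (all events 0.149%). Events with a PSI between 0.1 and 0.9 made up 8.78% and 8.82% of the frame-preserving events in the DMSO replicates and 17.1% and 17.7% after pladienolide B. Among events that were intermediate in DMSO, 137 of 808 frame-preserving events (17.0%) and 199 of 857 others (23.2%) were called. Of all 2359 intermediate events, 19.6% were called. The median changes of the 2 classes lay close together, at -0.0349 and -0.0390 PSI. Among Switch-Like events, 16.4% of 318 and 24.2% of 149 were called, with median changes of -0.0192 and -0.0207 PSI. These 2 sets started from different levels, with a median PSI in DMSO of 0.417 and 0.532. A difference in response between the classes was not tested.

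The exons that fell most were nearly fully included in DMSO, and a fall of this size needs a high start. The 159 bp exon of Neurl4 (chr11:69906730-69906888) was at 1 and 1 in DMSO and 0.134 and 0.0693 after pladienolide B (adjusted p = 1.8e-06). The 111 bp exon of Mtmr3, a phosphoinositide phosphatase (chr11:4485879-4485989), went from 0.981 and 0.977 to 0.0958 and 0.118 (adjusted p = 2.1e-07). The 111 bp exon of Epn3, an epsin of endocytosis (chr11:94491909-94492019), went from 1 and 1 to 0.152 and 0.147 (adjusted p = 2.3e-05), and the 117 bp exon of the zinc finger gene Zfp217 (chr2:170116142-170116258) from 0.984 and 0.973 to 0.174 and 0.161 (adjusted p = 1.5e-06). These exons were picked for the widest gap between the treatments, so that the treatments did not overlap follows from the choice. They had as few as 21 to 45 reads in their shallowest library.

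Few exons rose. The 84 bp exon of Luc7l2, a splicing factor associated with U1 (chr6:38554980-38555063), rose from 0.498 and 0.428 in DMSO to 0.909 and 1 (adjusted p = 0.00047). The 141 bp exon of BC029214 (chr2:25459775-25459915) rose from 0.499 and 0.635 to 1 and 1 (adjusted p = 0.015), with 27 to 44 reads. The 129 bp exon of the zinc finger gene Zfp62 (chr11:49214526-49214654) rose from 0.117 and 0.109 to 0.424 and 0.574 (adjusted p = 0.0018). The 225 bp exon of Setd5, a SET domain protein (chr6:113105917-113106141), rose from 0.547 and 0.538 to 0.808 and 0.847 (adjusted p = 0.00066). All 4 differences were larger than the gap between the replicates, largely because the exons were picked for a wide gap between the treatments.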

How the data were processed

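Junction read counts of SE events in 14 tissue and 4 fibroblast libraries were used. The authors trimmed reads to 1 length for all samples, aligned them with HISAT2 2.0.1 (also in the submitters' processing notes, with mm10), assigned them to C57BL/6J or SPRET/EiJ, and deposited raw rMATS junction counts, where each cell lists the 2 replicates, and the effective length of each form, a score written by rMATS. TPM values were deposited by the authors from featureCounts on all reads, and served for markers and host genes; none of fibroblasts were used, so their markers were not checked. Columns with the authors' own tests (p-values, FDR, inclusion level differences) were not used, nor were retained introns and the allelic table of pladienolide B.

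C57BL/6J was taken as the first allele of the allelic tables, in the order of the cross, and checked on 6 imprinted genes, where the known parental allele held most reads in 20 of 20 pairs of gene and organ. In ESC it did so for 1 of 6 genes, so the allele order in ESC is not checked by them. The named exons of Pkp4 and Mrps17 had the same direction in ESC as in the organs. DMSO was taken as the second group of the fibroblast table, in the order of its name, and checked with the allelic reads of DMSO, whose sum exceeded it in 0 of 30891 events.

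From these counts and lengths PSI was computed anew. Inclusion against skipping counts were fitted with a quasi-binomial logistic model, by tissue (2 or more tissues with at least 20 reads in both replicates), by allele in each tissue (20 reads per allele and replicate, and PSI of both alleles together within 0.1 of that of all reads) or by treatment. Dispersions, with a floor of 1, were moderated with squeezeVar of limma 3.58.1 (R 4.3.3) toward a prior that follows read depth, and p-values of the F test were adjusted (Benjamini-Hochberg) across every autosomal event, whatever its length. Calls needed an FDR under 0.05 and 0.1 PSI. The prior was taken from events with at least 50 reads of the minor form. It had first been taken from events with at least 10 and the calls of all fits had been seen. The limit was raised because the residuals of sparse events are discrete, and 10 is kept as an alternative added after seeing the data. Data were simulated after that: of 200 changed events (0.3 PSI), 80% were recovered in the tissue fit over 47963 events, 81% in the pladienolide fit over 54535, and for alleles 64% of 200 in cortex (24378 events), 66% in kidney (24320), 69.5% in lung (21534), 54% in heart (16181), 56.5% in spleen (21222), 43.5% in liver (13342) and, for ESC (30958), 0%, with at most 3.57% false calls.

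No test was made between length classes, whose events share genes, exons and libraries. Alleles are paired by library, and their replicate differences correlated with r between 0.0835 and 0.494 across events. Replicate differences of different tissues correlated with r between -0.0795 and 0.0582 across events (not independent), so replicate numbers were not taken as pairs across tissues, nor across treatments (r = 0.0057). The p-values rest on 2 replicates per group, and precision is limited to this spread. Summed over SE events, where a read can count more than once, a tissue library had 10338947 to 46793808 junction counts per allele. A fibroblast library had 129067054 to 151755602 in all.

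Named exons are, with 1 event per gene and list, the 12 called events with the widest gap between the replicates of the highest and lowest tissue, up to 2 per tissue in which it stands alone in 4 or more tissues, 8 with allelic calls in the most tissues, 4 per direction for pladienolide B, and up to 4 called events per gene list, of which 1 is not reported here. Genes with several called exons, length bins, groups by depth and pairs of tissues were added after their values were seen. The exons, lists and tests were chosen with earlier results of these data known. Analyses used Python 3.11.15, numpy 2.4.6 and pandas 2.3.3.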

Additional observations from a re-analysis of the deposited data

Results flagged for a closer look

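A search for opposite directions, which required a call in 1 or more tissues and a mean difference of at least 0.1 PSI and was set up after the values had been seen, found 2 frame-preserving exons whose replicates all moved one way in some tissues and the opposite way in another. The difference between tissues was not tested. The 63 bp exon of Evl, an actin regulator of the Ena/VASP family, was higher from C57BL/6J by 0.165 in spleen (called, adjusted p = 0.0075 by the moderated F test), by 0.260 in kidney and by 0.294 in liver, and in heart the difference was -0.119. The last 3 did not pass the test, and in liver the SPRET/EiJ replicates were at 0.808 and 0.422 with as few as 21 reads. The 108 bp exon of Tprkb, a partner of the p53-related kinase, was higher from C57BL/6J by 0.134 in cortex and by 0.135 in kidney, both called, and in liver the difference was -0.425, which did not pass the test (adjusted p = 0.11), with SPRET/EiJ replicates at 0.428 and 0.677. With the library as a block the kidney call of Tprkb was lost (adjusted p = 0.0937).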

How the results depend on the processing

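Counts of tissue calls among frame-preserving events stayed within 1.5 times of 1478 under all alternatives, between 1228 and 1671, and between 1281 and 1691 with 1 of the 14 libraries left out, the lone library of a tissue then being assumed to vary like the others. At least 1275 of the 1478 were called again without any 1 library. Calls for pladienolide B, 724 as reported, were 514 with a minimum of 50 reads (6.43% of tested events) and 803 with 10 (8.13%). They were 582 with 1 event per exon and 628 with a prior without depth trend. With the prior from events with 10 reads of the minor form they were 754. The replicate block gave 1338 tissue calls and 773 pladienolide calls, and of the named exons it changed the call of Ptbp1 and 11 allelic calls (10 in liver or ESC). The Switch-Like share was 3.10% with a minimum of 50 reads, 3.60% with 10, 3.21% with 1 event per exon, 3.68% without ESC and 3.64% to 3.78% with 1 replicate of every tissue. It stayed above that of other lengths in each of these settings, by 2.23 to 2.67 percentage points. The alternative share was 20.4%, 26.7% and 22.2% in the first 3 settings and 20.3% to 21.0% with 1 replicate. Allelic calls depended most on the processing. Under the library as a replicate block there were 35 for heart, 71 for kidney, 0 for liver and 0 for ESC, and with a prior without depth trend 38 for heart, 81 for kidney and 65 for lung. With alternative events only, which are fewer to adjust over, the counts were 145 for heart, 231 for kidney, 210 for lung, 189 for spleen, 98 for liver, 14 for ESC and 548 for any tissue. With the prior from events with 10 reads of the minor form they were 156, 201, 211, 169, 69, 101 and 571 in the same order. ESC had 5 calls with a minimum of 50 reads and 5 with 1 event per exon. Median allelic differences with a minimum of 50 reads were 0.00914 for cortex, 0.0112 for heart, 0.00735 for kidney, 0.00898 for lung, 0.0101 for spleen and 0.00776 for liver, and with a minimum of 10 reads 0.0132 for cortex, 0.0163 for heart, 0.0105 for kidney and 0.0143 for spleen. Without the filter on the PSI of both alleles together they were 0.0121 for cortex and 0.0134 for spleen. With alternative events only they were 0.0354 for cortex, 0.0511 for heart, 0.0383 for kidney, 0.0427 for lung, 0.0471 for spleen, 0.0420 for liver and 0.0512 for ESC. With 1 replicate left out they were 0.0114 to 0.0122 for cortex, 0.0122 to 0.0142 for heart, 0.00820 to 0.00922 for kidney, 0.00872 to 0.0116 for lung, 0.0114 to 0.0123 for spleen, 0.00767 to 0.0108 for liver and 0.00675 to 0.0152 for ESC. The cause of these changes was not tested.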
